A study of Arabidopsis thaliana with 24 samples.

Results

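The 9 genes described here encode major latex protein-like (MLP) proteins of Arabidopsis thaliana, and they were taken by their identifiers from the 33612 genes of the deposited count table. They are MLP28 (AT1G70830), MLP31 (AT1G70840), MLP34 (AT1G70850), MLP43 (AT1G70890), MLP329 (AT2G01530) and the 4 tandem genes AT1G14930, AT1G14940, AT1G14950 and AT1G14960. The set was chosen by the levels of MLP31 and AT1G14950 in the double mutant, so those levels are given as a description with no test, and the other 7 genes came with them as members of the family. Messenger RNA was measured by RNA sequencing of poly(A) RNA from whole seedlings aged 9 days, with 3 biological replicates of each genotype label. The groups were pklpif4 (both mutations, written pkl-1pif4 in the genotype label), pkl (pkl-1), pif4 and the wild type (WT), 12 libraries in all. The series' design text gives continuous white light for all of them, and the columns used carry the number 28, which the labels set beside white light without a readable unit. The tables deposited for the red-light samples of the series hold the same values, so the growth condition rests on column names.

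Major latex proteins were first described in the latex of opium poppy. They share a fold with the birch pollen allergen and with pathogenesis-related proteins, built around a hydrophobic cavity that can hold small ligands, and for most Arabidopsis members no ligand is established. Many sit in tandem arrays. PKL encodes a CHD3 chromatin remodeller that keeps seed genes silent after germination, and PIF4 encodes a basic helix-loop-helix transcription factor that promotes elongation in response to light and warmth.

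Totals ran from 38675068 to 48991932 counts per library in pklpif4, 41220985 to 52980805 in pkl, 40168802 to 47237160 in pif4 and 37762216 to 56492669 in WT. PIF4 itself was at 148.2 ± 1.09 CPM (normalised counts scaled to library size with TMM factors) in the libraries labelled pklpif4, 65.8 ± 2.97 in pkl, 174.1 ± 3.36 in those labelled pif4 and 100.4 ± 4.56 in WT (SD, n = 3 each). The gene named in the pif4 label was thus counted more, not less, in both sets of libraries that carry that label, and a direction given for pif4 or pklpif4 below is that of the libraries so labelled. PKL was at 104.2 ± 2.64 CPM in pklpif4, 102.6 ± 4.03 in pkl, 91.8 ± 3.34 in pif4 and 97.3 ± 4.12 in WT (SD, n = 3 each), which does not check the pkl label. Leaf markers were abundant in every library and root markers were present in all 4 genotypes.

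Of the 9 genes, 8 lie in a pair of arrays on chromosome 1 (coordinates of the deposited count table, TAIR10, spanning the exons of each gene, all on the minus strand). The first array holds MLP28 (chr1:26709947-26711462), MLP31 (chr1:26712982-26714066), MLP34 (chr1:26714866-26716829) and MLP43 (chr1:26725626-26726544), with AT1G70860, AT1G70870 and AT1G70880 between MLP34 and MLP43. The second holds AT1G14930 (chr1:5152263-5153084), AT1G14940 (chr1:5154537-5155564), AT1G14950 (chr1:5157336-5158269) and AT1G14960 (chr1:5159199-5160083). MLP329 lies on chromosome 2 (chr2:239705-240520, plus strand). All values are exonic counts, and no member shared exon bases with another gene of the table.

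Because array neighbours are alike, the stretches that tell them apart bear on every value below. A 60-base coding stretch is shown for the first array around the longest run that MLP31 shares with MLP43, from RefSeq coding sequences (TAIR10.1). Capitals mark bases that differ from MLP31.
MLP31: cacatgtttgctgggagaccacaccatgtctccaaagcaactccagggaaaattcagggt
MLP28: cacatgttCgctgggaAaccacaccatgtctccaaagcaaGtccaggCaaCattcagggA
MLP34: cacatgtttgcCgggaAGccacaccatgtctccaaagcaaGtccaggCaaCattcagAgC
MLP43: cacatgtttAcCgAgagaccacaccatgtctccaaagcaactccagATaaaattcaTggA
Over that stretch, MLP28 differed from MLP31 at 6 bases, MLP34 at 8 and MLP43 at 7. Over aligned coding bases, gaps left out, MLP31 was 80.1% identical to MLP28, 81.9% to MLP34 and 79.0% to MLP43. These rest on 513, 493 and 477 aligned bases, where MLP28 and MLP34 have 1008 and 951 coding bases. As a share of the shorter coding sequence the identities were 79.7%, 78.3% and 79.0%. The longest exact run of MLP31, 32 bases with MLP43, was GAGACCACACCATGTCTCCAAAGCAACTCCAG. MLP28 and MLP34 were closer, at 89.8% identity with an exact run of 72 bases.

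For the second array the stretch starts at coding base 94 of each gene, and capitals mark bases that differ from AT1G14950.
AT1G14950: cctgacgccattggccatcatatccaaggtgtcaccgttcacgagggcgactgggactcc
AT1G14930: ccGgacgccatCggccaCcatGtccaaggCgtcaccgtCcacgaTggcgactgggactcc
AT1G14940: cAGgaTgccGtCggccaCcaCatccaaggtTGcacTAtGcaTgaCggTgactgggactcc
AT1G14960: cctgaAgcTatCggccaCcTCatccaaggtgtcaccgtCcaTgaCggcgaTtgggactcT
These differed from AT1G14950 at 7, 15 and 11 bases, in the order shown. AT1G14930 and AT1G14940 were the most alike of that array over the whole coding sequence, at 87.2% with an exact run of 52 bases, and AT1G14930 and AT1G14950 were 82.9% identical. Of the 100-base windows along the exons of any member, 0 occurred elsewhere in the nuclear genome, among them 561 windows of MLP31 and 647 of AT1G14950. At 50 bases, 0 windows of MLP31 or AT1G14950 were repeated, against 33 of 1375 for MLP28 and 33 of 1222 for MLP34. The sources used here give neither the read length nor how multiply matching reads were treated.

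MLP31 was counted in the double mutant at a level far above that of the other genotypes. The pklpif4 libraries held 853, 961 and 615 counts of MLP31, or 18.7, 19.7 and 16.0 CPM. It had 0 counts in all 3 pkl libraries, 0 in all 3 pif4 libraries, and 13, 12 and 10 counts in WT, or 0.235, 0.306 and 0.270 CPM. The double mutant stood apart from every other library, and WT in turn stood apart from both single mutants. Its log2 difference in pklpif4 against WT was 6.08 ± 0.21 (SE). Against single mutants with no counts only bounds can be given, computed at a floor of 6 counts (3 read pairs) over the group. The floor covers the counting error of the empty group and not that of the group counted. MLP31 was at least 426-fold higher in pklpif4 than in pkl and at least 410.5-fold higher than in pif4.

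MLP31 was lower in each single mutant than in WT, at few counts, whereas it was highest in the double mutant. At the floor it was 6.19-fold lower in pkl than in WT and 5.96-fold lower in pif4. These values rest on 35 counts in WT, summed over its 3 libraries, and leave out the counting error of those counts. Depth thus limits how large a fall could be seen. With only WT and 1 single mutant in the fit, MLP31 did not pass the filter on low counts and was not tested. In the full fit only pklpif4 and WT had all libraries at the filter cutoff. Its values in the single mutants are thus a description, and no p is given.

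**Figure D1:**
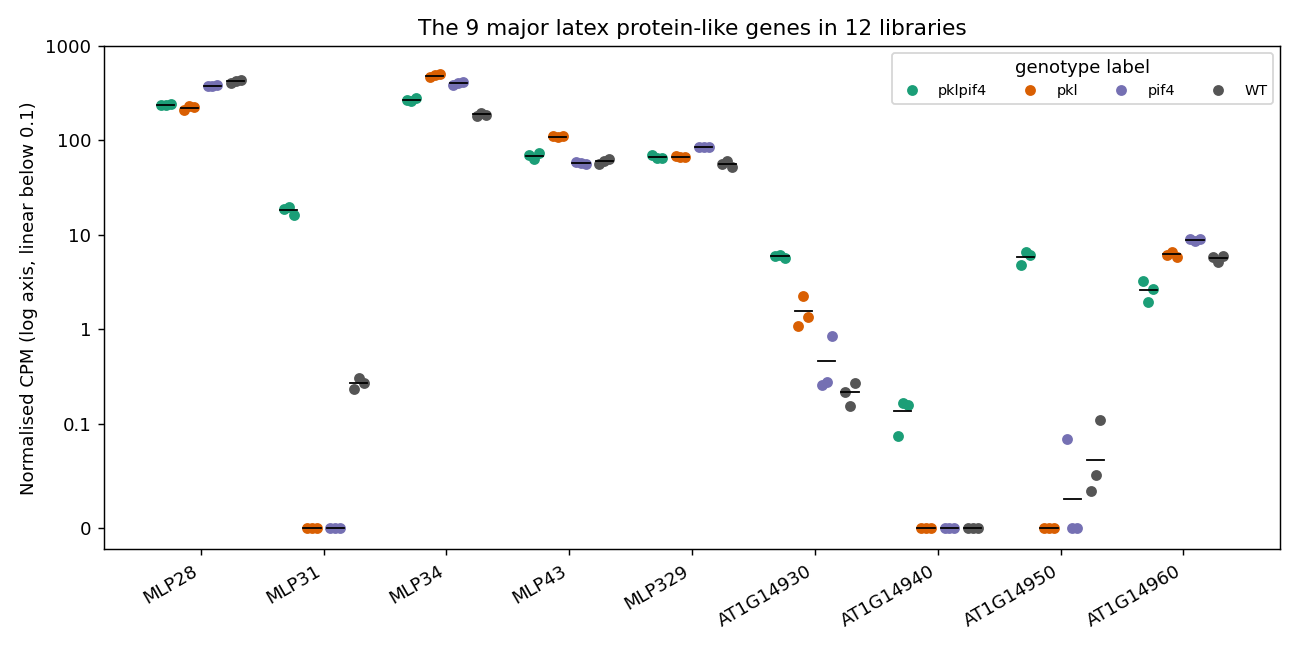
Normalised CPM of the 9 genes (log axis, linear below 0.1) in each of the 12 libraries; points are libraries, coloured by genotype label, and bars are means of 3. MLP31 and AT1G14950 are at 16.0 CPM or more and 4.77 CPM or more in the pklpif4 libraries, and at 0.306 CPM or less in every other library.

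AT1G14950 showed a like profile at a lower level. Its counts were 217, 324 and 236 in pklpif4, which is 4.77, 6.64 and 6.15 CPM. The pkl libraries had 0 counts, the pif4 libraries 4, 0 and 0, and the WT libraries 2, 2 and 4. The pklpif4 libraries stood apart from all others. Those of pif4 overlapped both pkl and WT, and those of pkl, at 0, lay below those of WT. The ratio of pklpif4 to WT was 96.3-fold (exact 95% interval 37.4 to 355.8, counting error only), and that of pklpif4 to pif4 was 197-fold (54.2 to 1634). All 4 pif4 counts came from replicate 1. The fitted log2 difference from pif4 was 7.50, and it ran from 6.91 to 11.03 when libraries were left out, the highest being without pif4 replicate 1, where pif4 held 0 counts and the fitted value is no bound. The gene was at least 136-fold higher in pklpif4 than in pkl.

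In the single mutants AT1G14950 was near the limit of detection, and it entered the fit only through pklpif4, the group for which it was chosen. With only the compared groups in the fit it was not tested, so its values there are no more than a description, and no p is given. In pkl it had 0 counts against 8 in WT. At the floor it was 1.41-fold lower, a value that leaves out the counting error of WT and bounds no fall. In pif4 its log2 change from WT was -0.98 ± 0.92 (SE), and replicate 1 held all 4 counts. The difference between pkl and pif4 in this gene was not tested.

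The 250 bases before the RefSeq start of each of these genes are printed because both genes were highest in the double mutant (TAIR10.1, minus strand, 5′ to 3′). MLP31 is chr1:26714070-26714319 and AT1G14950 is chr1:5158270-5158519.
MLP31: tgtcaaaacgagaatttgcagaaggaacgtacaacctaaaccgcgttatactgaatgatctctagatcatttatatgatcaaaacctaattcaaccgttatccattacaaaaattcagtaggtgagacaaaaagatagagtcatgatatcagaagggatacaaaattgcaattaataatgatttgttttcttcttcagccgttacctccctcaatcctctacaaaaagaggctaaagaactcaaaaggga
AT1G14950: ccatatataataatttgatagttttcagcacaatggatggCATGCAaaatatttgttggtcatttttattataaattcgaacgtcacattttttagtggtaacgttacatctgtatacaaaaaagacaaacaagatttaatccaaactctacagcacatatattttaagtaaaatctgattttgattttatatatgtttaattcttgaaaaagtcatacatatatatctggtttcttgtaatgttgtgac
The motifs searched, on both strands, were CACGTG (the G-box), CACATG (an E-box variant bound by PIF factors) and CATGCA (the core of the RY element of seed genes). Capitals mark the only match in these sequences, CATGCA in AT1G14950, at position -210 from the gene start. Over all 9 members CACGTG was in 0 windows, CACATG was in 2 (MLP43 at -94 and AT1G14960 at -75) and CATGCA was in that of AT1G14950. Of 27443 promoters of the same length, 6.49% held CACGTG, 11.1% CACATG and 8.43% CATGCA.

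Seed markers moved with MLP31 and AT1G14950 in the double mutant. The summed level of 15 seed and embryo markers ran from 4037 to 4083 CPM in pklpif4, 68.0 to 75.1 in pkl, 59.4 to 61.3 in pif4 and 53.8 to 57.0 in WT. A few storage protein genes set most of that sum. In pklpif4 CRA1, CRU3 and SESA5 averaged 1895, 1192 and 560.2 CPM, and in WT CRA1 and CRU3 averaged 30.8 and 16.7. Of the 13 tested, 12 rose and 0 fell in pklpif4 against WT (edgeR's quasi-likelihood test with Benjamini-Hochberg adjustment, adjusted p threshold 0.05). In pkl 10 rose and 2 fell, and in pif4 4 rose and 2 fell. Over all tested genes, 27.2% were called higher and 27.7% lower in pklpif4, 27.1% and 26.5% in pkl, and 16.2% and 16.2% in pif4. Of the 15, 1 was at 0 in pklpif4, 0 in pkl, 3 in pif4 and 3 in WT. LEC1, a master regulator of embryo identity, had 0 counts in pklpif4 and in WT, while ABI3, a regulator of seed maturation, averaged 30.7 CPM in pklpif4, 5.40 in pkl, 4.001 in pif4 and 1.63 in WT. The part of these seed transcripts in the values of MLP31 and AT1G14950 was not tested, and in whole seedlings more cells of a type and more RNA per cell cannot be told apart. In pkl, where MLP31 was at 0, the seed markers that fell were CRU3 and SESA5, by 3.89 and 1.35 on the log2 scale. The same 2 fell in pif4, with log2 changes of -3.30 and -3.18. FUS3 was the tested marker not called in pklpif4 against WT (-0.34, edgeR, adjusted p = 0.487).

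Leaf markers moved too. The summed level of 5 green leaf markers ran from 35210 to 36130 CPM in pklpif4, 25340 to 26010 in pkl, 29780 to 30130 in pif4 and 32420 to 33140 in WT. Of the 5, 3 rose and 1 fell in pklpif4 against WT, 5 fell in pkl and 4 fell in pif4 (edgeR), and 5 rose in pklpif4 against each single mutant. Among all tested genes, 27.2% rose and 27.7% fell in pklpif4 against WT, 26.5% fell in pkl and 16.2% fell in pif4. In pklpif4 19.5% rose against pkl and 25.5% against pif4. Their part in the values of the MLP genes was not tested.

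The 3 genes with profiles most like MLP31, by Pearson's r of log2 CPM over the 12 libraries, were CRU3 (r = 0.996), CAB3 (r = 0.992) and AT3G53980 (r = 0.989). CRU3, which encodes a cruciferin seed storage protein, averaged 1192 CPM in pklpif4, 1.13 in pkl, 1.70 in pif4 and 16.7 in WT, so it was low in both single mutants as MLP31 was. CAB3, a chlorophyll-binding antenna protein with near-identical neighbours among which reads may be split, was at 2408 CPM in pklpif4, 1288 in pkl, 1302 in pif4 and 1649 in WT. The genes most like AT1G14950 were SPS3F, a sucrose phosphate synthase (r = 0.988), RAB18, an abscisic acid-responsive dehydrin (r = 0.988), and AtMT4a, a seed metallothionein (r = 0.985). RAB18 averaged 316.6 CPM in pklpif4, 14.9 in pkl, 19.7 in pif4 and 26.0 in WT. Like CRU3, the genes CAB3, AT3G53980 and RAB18 were lower in both single mutants than in WT, with no overlap of libraries. MLP31 and AT1G14950 had r = 0.970 with each other, at rank 23 in the list for MLP31 and 31 in that for AT1G14950. These are descriptions over libraries that share genotype and depth, and carry no p. Since MLP31 and AT1G14950 were both chosen by their high levels in pklpif4, their likeness to each other, and to genes high there, follows in part from that choice.

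**Figure D2:**
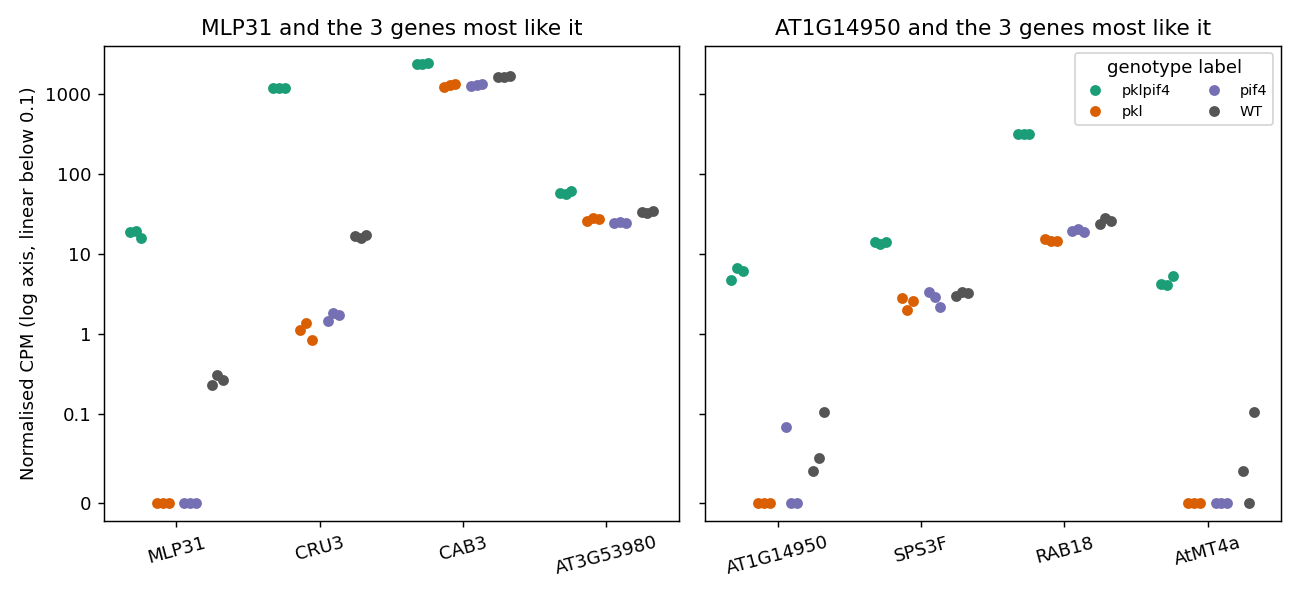
Normalised CPM (log axis, linear below 0.1) of MLP31 with CRU3, CAB3 and AT3G53980, and of AT1G14950 with SPS3F, RAB18 and AtMT4a; each point is 1 of the 12 libraries. In all 8 genes the pklpif4 points lie above those of the other genotypes. MLP31, CRU3, CAB3, AT3G53980 and RAB18 are lower in every pkl and pif4 library than in every WT library.

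The neighbours of MLP31 in its array moved in other ways. MLP28 was the highest of the array in WT and lower in every mutant. Its libraries had 237.3, 234.6 and 243.8 CPM in pklpif4, 207.8, 230.5 and 227.1 in pkl, 375.5, 372.2 and 389.9 in pif4, and 405.4, 425.2 and 432.5 in WT. No 2 genotypes overlapped, and the order was WT, pif4, pklpif4, pkl. Relative to WT, MLP28 fell by 0.93 ± 0.03 on the log2 scale in pkl (SE; edgeR, adjusted p = 1.83e-43), by 0.82 ± 0.03 in pklpif4 (adjusted p = 2.73e-40) and by 0.15 ± 0.03 in pif4 (adjusted p = 2.18e-06). The pif4 call was lost with limma on log2(FPKM + 1) and no filter (-0.11, adjusted p = 0.0533). The difference between pklpif4 and pkl was small, 0.11 ± 0.03 on the log2 scale (edgeR, adjusted p = 0.000879). It was lost under library-total scaling (0.06, adjusted p = 0.0776), with limma on FPKM (0.06, adjusted p = 0.210) and without pkl replicate 1 (0.06, adjusted p = 0.0677).

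MLP34 rose in all 3 mutants and had the order pkl, pif4, pklpif4, WT, again with no overlap. Its CPM were 264.5, 260.5 and 280.3 in pklpif4, 469.6, 487.4 and 500.8 in pkl, 388.4, 406.1 and 418.0 in pif4, and 182.1, 193.8 and 187.6 in WT. The log2 change from WT was 1.37 ± 0.03 in pkl (SE; edgeR, adjusted p = 1.4e-56), 1.11 ± 0.03 in pif4 (adjusted p = 5.3e-50) and 0.52 ± 0.03 in pklpif4 (adjusted p = 6.56e-29). The double mutant was therefore lower than either single mutant, by 0.86 ± 0.03 relative to pkl (edgeR, adjusted p = 1.66e-43) and by 0.59 ± 0.03 relative to pif4 (adjusted p = 4.27e-33).

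MLP43, reported in Arabidopsis as a positive factor in abscisic acid and drought responses, rose mainly in pkl. It was at 70.3, 63.0 and 72.8 CPM in pklpif4, 109.9, 108.6 and 110.8 in pkl, 58.4, 58.1 and 55.5 in pif4, and 56.0, 60.9 and 64.0 in WT. The pkl libraries stood above all others, those of pklpif4 overlapped WT, and those of WT overlapped pif4. The log2 change was 0.87 ± 0.04 in pkl (SE; edgeR, adjusted p = 1.01e-36) and 0.19 ± 0.04 in pklpif4 (adjusted p = 6.53e-05). In pif4 it was -0.07 ± 0.04 (adjusted p = 0.244), and without WT replicate 1 it was -0.12 (adjusted p = 0.0408).

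Between genes, levels are compared on the authors' FPKM, which are scaled per exon length. The array's 4 members together reached 489.8 ± 13.8 FPKM in pklpif4, 692.5 ± 21.4 in pkl, 668.2 ± 15.2 in pif4 and 522.2 ± 18.3 in WT (SD, n = 3 each). MLP28 made up 36.1% of that sum in pklpif4, 24.5% in pkl, 42.5% in pif4 and 58.9% in WT. MLP34 made up 42.0% in pklpif4, 55.6% in pkl, 46.9% in pif4 and 27.2% in WT, so that it was ahead of MLP28 in each mutant and behind it in WT. MLP31 reached 4.88% of the sum in pklpif4 and 0.0669% in WT, which leaves it the lowest of the 4 even in the double mutant, at 23.8 FPKM against 83.4 FPKM for MLP43.

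**Figure D3:**
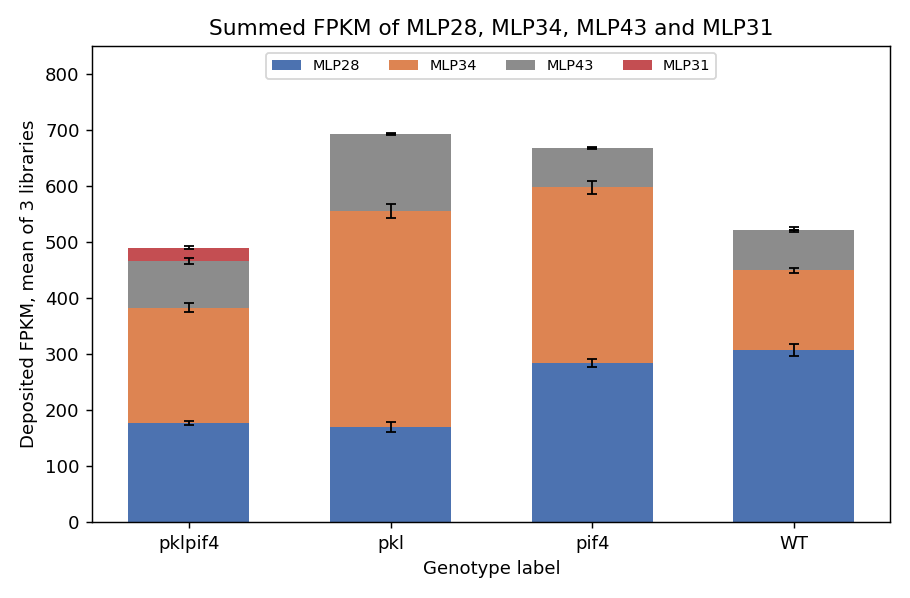
Stacked mean FPKM, as deposited, of MLP28, MLP34, MLP43 and MLP31 by genotype label; error bars are the SD of each gene over 3 libraries, drawn at the top of its segment. MLP34 is the largest segment in pklpif4, pkl and pif4, and MLP28 is the largest in WT; MLP31 is visible in pklpif4 alone.

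In the second array, AT1G14930 followed AT1G14950 in being highest in the double mutant, but it was also counted in the single mutants. Its counts were 271, 296 and 219 in pklpif4 (5.95, 6.07 and 5.71 CPM), 59, 94 and 58 in pkl (1.09, 2.23 and 1.35 CPM), 12, 13 and 34 in pif4 (0.257, 0.274 and 0.844 CPM) and 12, 6 and 10 in WT (0.217, 0.153 and 0.270 CPM). The libraries of pklpif4 stood above pkl, and pkl above pif4, whereas pif4 and WT overlapped. Relative to WT it rose by 4.78 ± 0.31 on the log2 scale in pklpif4 (SE; edgeR, adjusted p = 2.43e-26) and by 2.84 ± 0.34 in pkl (adjusted p = 6.03e-12). Between pklpif4 and pkl the difference was 1.94 ± 0.24 (edgeR, adjusted p = 9.88e-12). The pif4 change of 1.05 ± 0.41 (edgeR, adjusted p = 0.0394) rested on replicate 3, without which it was 0.31 (adjusted p = 0.684). It was also lost without WT replicate 1 (adjusted p = 0.0889) or 2 (0.135), and its adjusted p with halved counts was 0.0898.

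AT1G14940 was close to the limit of detection. It had 4, 8 and 6 counts in pklpif4 and 0 in all 9 other libraries, and it did not pass the filter on low counts. At the floor it was 2.98-fold higher in pklpif4 than in WT, 3.16-fold higher than in pkl and 3.04-fold higher than in pif4. These values leave out the counting error of the pklpif4 counts. AT1G14940 shares the 52-base run with AT1G14930, which was itself highest in pklpif4, and whether reads were divided between them was not tested.

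AT1G14960 went the other way. It was at 3.25, 1.93 and 2.69 CPM in pklpif4, 6.11, 6.63 and 5.81 in pkl, 9.05, 8.57 and 9.06 in pif4, and 5.88, 5.20 and 5.89 in WT. The pif4 libraries were highest and those of pklpif4 lowest, while pkl and WT overlapped. AT1G14960 fell by 1.12 ± 0.15 on the log2 scale in pklpif4 (SE; edgeR, adjusted p = 9.58e-11) and rose by 0.65 ± 0.13 in pif4 (adjusted p = 2.08e-05). In pkl its change was 0.13 ± 0.13 (adjusted p = 0.439). Within the same array, then, AT1G14930 rose and AT1G14960 fell in the double mutant. The genes next to the array, picked after their values were seen, were AT1G14920 at 45.5 CPM in pklpif4, 70.1 in pkl, 47.7 in pif4 and 80.1 in WT, and AT1G14970 at 8.15, 7.32, 6.33 and 7.29 CPM in the same order.

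MLP329, also named ZCE2 for its response to cis-cinnamic acid, rose in all 3 mutants. Its CPM were 70.0, 65.7 and 64.8 in pklpif4, 68.3, 66.3 and 66.9 in pkl, 85.3, 84.8 and 84.8 in pif4, and 55.7, 60.02 and 51.9 in WT. The pif4 libraries stood highest and WT lowest, and pklpif4 and pkl overlapped. The log2 change from WT was 0.26 ± 0.04 in pklpif4 (SE; edgeR, adjusted p = 8.4e-08), 0.27 ± 0.04 in pkl (adjusted p = 3.56e-08) and 0.61 ± 0.04 in pif4 (adjusted p = 6.91e-25). The difference of pklpif4 from pkl was -0.01 ± 0.04 (adjusted p = 0.909).

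**Figure D4:**
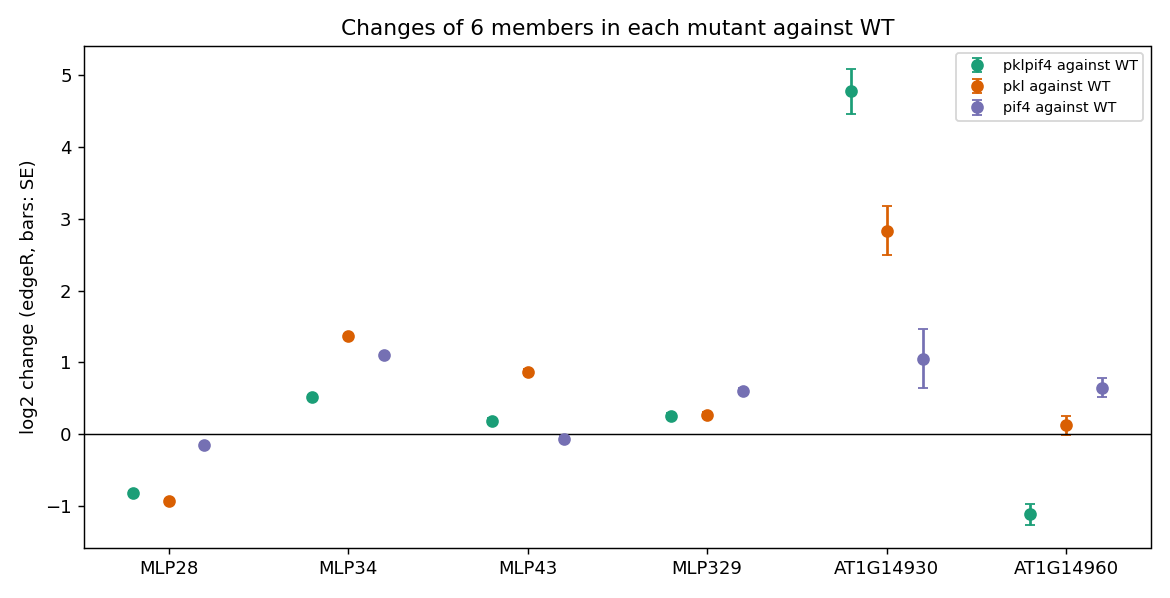
Log2 change against WT (edgeR; bars are SE) of 6 members in the pklpif4, pkl and pif4 libraries, 3 libraries per group. MLP28 lies below 0 in all 3, MLP34 and MLP329 above it, and AT1G14960 is below 0 in pklpif4 and above it in pif4.

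The effect of pkl was compared between the pif4-labelled background (pklpif4 against pif4) and WT (pkl against WT). The interaction, the first log2 effect minus the second, was -1.96 ± 0.04 for MLP34 (SE; edgeR, adjusted p = 6.66e-57), -0.61 ± 0.06 for MLP43 (adjusted p = 6.3e-16), -0.61 ± 0.06 for MLP329 (adjusted p = 2.89e-16) and -1.89 ± 0.20 for AT1G14960 (adjusted p = 9.91e-15). MLP34, MLP329 and AT1G14960 had a pkl effect below 0 in the pif4-labelled background, of -0.59, -0.35 and -1.77, against 1.37, 0.27 and 0.13 in WT. For MLP28 the pkl effect was a fall in both, by 0.67 in the pif4-labelled background and by 0.93 in WT, and the interaction was 0.26 ± 0.04 (edgeR, adjusted p = 3.83e-08). AT1G14930 had an interaction of 0.89 ± 0.50 (adjusted p = 0.177), and without pif4 replicate 3 it was 1.63 (adjusted p = 0.0117). With limma on log2(FPKM + 1) it was 1.23 (adjusted p = 0.0014, or 0.00728 with no filter).

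Of the 9 genes, 8 entered the tests. In pkl against WT, 4 rose and 3 fell, where 53.6% of all 22130 tested genes were called in either direction (27.1% higher and 26.5% lower). In pif4, 4 rose and 2 fell, where 32.5% of tested genes were called (16.2% higher and 16.2% lower). For pklpif4 against WT the count was 6 higher and 2 lower (54.8% of all tested genes called, 27.2% higher and 27.7% lower). Against pkl it was 4 higher and 3 lower (39.9% called, 19.5% higher and 20.5% lower), and against pif4 4 higher and 4 lower (50.2% called, 25.5% higher and 24.7% lower). The interaction was above 0 in 3 and below 0 in 4 (31.9% called, 15.3% above and 16.5% below). The counts that hold pklpif4 libraries include MLP31 and AT1G14950, which were chosen for them, so nothing is read from those. The lower counts in pkl and in pif4 include MLP31. That in pkl also includes AT1G14950, which passed the filter through pklpif4 alone. With only the compared groups in the fit neither gene was tested, and 1 member was lower in pkl and 1 in pif4. The median log2 change of the 8 tested members, which moved both ways, was 0.20 in pkl and 0.27 in pif4, and that of all tested genes lay within 0.01 of 0 in both.

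Root markers also moved in the mutants. Their summed level, over 10 genes, ran from 139.7 to 144.4 CPM in pklpif4, 174.3 to 181.5 in pkl, 183.8 to 190.2 in pif4 and 101.3 to 109.2 in WT, and 1 of the 10 was at 0 in pkl. Of 9 tested, 6 rose and 2 fell in pklpif4, 6 rose and 1 fell in pkl, and 9 rose in pif4 (edgeR). The shares of all tested genes were 27.2% higher and 27.7% lower in pklpif4, 27.1% and 26.5% in pkl, and 16.2% higher in pif4. The order of that sum was pif4, pkl, pklpif4, WT, but the markers in it did not share that order. IRT1 averaged 3.35 CPM in pklpif4, 16.59 in pkl, 50.08 in pif4 and 14.55 in WT. FRO2 was also highest in pif4. PRP3 averaged 45.78 CPM in pklpif4, 67.15 in pkl, 29.9 in pif4 and 17.79 in WT, and EXPA7 and COBL9 were also highest in pkl. The order of the sum is thus not compared with those of the MLP genes. The part of root transcripts in the changes of the MLP genes was not tested.

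Outside the 9 members, 17 further genes of the family were counted, of which 15 were tested. In pkl against WT 6 rose and 4 fell, where 53.6% of all tested genes were called (27.1% higher and 26.5% lower). In pif4 5 rose and 1 fell, where 32.5% were (16.2% higher and 16.2% lower). For pklpif4 against WT 6 rose and 6 fell (54.8% called, 27.2% higher and 27.7% lower). Against pkl 2 rose and 6 fell (39.9% called, 19.5% higher and 20.5% lower). Against pif4 4 rose and 6 fell (50.2% called, 25.5% higher and 24.7% lower). The interaction was below 0 in 7 and above it in 0 (31.9% called, 16.5% below and 15.3% above). Among the genes called in pkl, the largest changes were those of AT1G30990, with 53 counts in pkl against 4 in WT (a ratio of 12.5-fold, exact 95% interval 3.20 to 110.4), AT4G14060, with 8 counts in pkl against 70 in WT (9.28-fold lower, 3.32 to 35.9), and AT1G70880. The only genotype with all libraries at the filter cutoff was pklpif4 for AT1G30990 and WT for AT4G14060. The values of these genes in both single mutants are thus a description. AT1G70880, which lies between MLP34 and MLP43, rose by 2.06 ± 0.16 on the log2 scale (SE; edgeR, adjusted p = 7.14e-22), with 8.54 ± 0.561 CPM in pkl against 2.06 ± 0.251 in WT (SD, n = 3 each).

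Among the genes called in pif4 the largest were those of AT1G30990, with 28 counts in pif4 against 4 in WT (6.85-fold, 1.57 to 62.1), MLP328 and MLP423. MLP328, the neighbour of MLP329 with 89.7% coding identity to it, had 23.6 ± 0.989 CPM in pklpif4, 97.7 ± 4.13 in pkl, 110.6 ± 6.33 in pif4 and 52.4 ± 2.28 in WT (SD, n = 3 each). It rose by 1.08 ± 0.04 on the log2 scale in pif4 (SE; edgeR, adjusted p = 2.83e-44) and by 0.90 ± 0.04 in pkl (adjusted p = 7.57e-38). In pklpif4 it was the lowest of the 4 genotypes, whereas MLP329 was lowest in WT. MLP423 rose by 0.49 ± 0.09 in pif4 (edgeR, adjusted p = 7.93e-07).

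**Figure D5:**
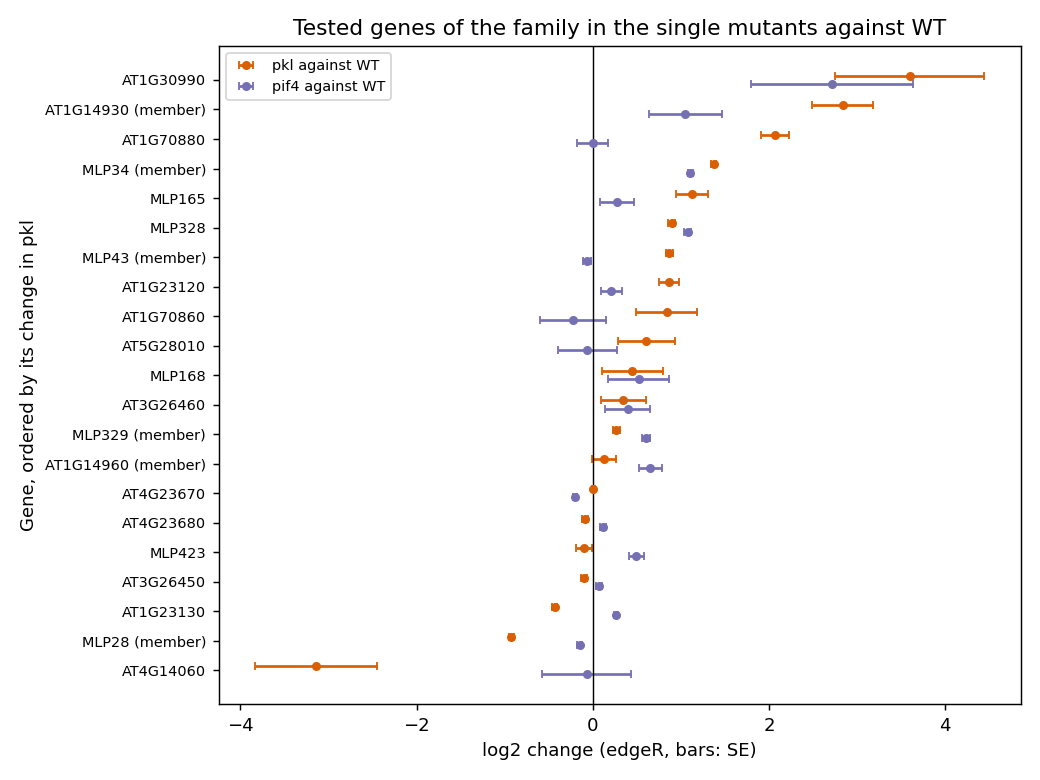
Log2 change against WT in pkl and in pif4 (edgeR; bars are SE) of the tested genes of the family, ordered by the change in pkl. MLP31, with 0 counts in both single mutants, and AT1G14950, with 0 in pkl and 4 in pif4, are left out. Among those drawn, AT1G30990 and AT1G14930 have the highest values in pkl and AT4G14060 and MLP28 the lowest.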

How the data were processed

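Reads were processed with fastp, HISAT2 2.1.0 and SAMtools 1.6 on TAIR10, per the submitters' processing notes. Neither the counter nor its strand setting is given in the sources used here. As deposited by the authors, the tables hold raw counts per gene and FPKM. FPKM recomputed from the counts and exon lengths differed by at most 4.35e-07. The deposited tables for the red-light samples equalled those used (0 of 33612 lines differed). They were set aside, 24 columns in all were not used, and the growth condition rests on column names.

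Genes passing filterByExpr (minimum count 10, minimum total 15), 22130 in all, entered 1 model over the 12 libraries in edgeR 4.0.16 (R 4.3.3) with TMM scaling and a two-sided quasi-likelihood test (robust), with Benjamini-Hochberg adjusted p under 0.05 over all tested genes. The SE is the log2 change divided by the square root of F. The filter let AT1G14950 in through pklpif4 alone. AT1G30990 had all libraries at the cutoff in pklpif4 alone, and AT4G14060 in WT alone. Alternatives were RLE factors, library totals, other filters, DESeq2 1.42.0, halved counts, a replicate block, limma 3.58.1 on log2(FPKM + 1) and log2(FPKM + 0.1), compared groups only and each library left out. In simulated data, 99 of 100 genes changed 2-fold and 98 of 100 changed 4-fold were recovered. The simulation gave every gene 1 fixed spread and changed only 200 genes, unlike these data, so its recovery does not carry over to genes near the floor. Low counts (1 to 8) were even in 70.9% to 74.3% of cases, a pattern that counting both mates of each pair would give. Counts over 100 were even in 49.9% of cases. The floors, exact intervals and halved counts assume that both mates were counted, which was not tested. Intervals cover counting error only, floors cover that of the empty group alone, and the replicates are biological per the labels. The 9 members and all lists were chosen with earlier results of these data known. Named by rule were all members, the 3 other family genes with the largest called change in each single mutant, both mutated genes, and the 3 genes most like MLP31 and AT1G14950. Gene names came from RefSeq (TAIR10.1), which matched 28932 identifiers.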

Additional observations from a re-analysis of the deposited data

Results flagged for a closer look

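In 5 members the effect of pkl differed between the pif4-labelled background and WT by the interaction test in edgeR's quasi-likelihood fit. The differences of the log2 effects were 0.257 for MLP28, -1.962 for MLP34, -0.611 for MLP43, -0.612 for MLP329 and -1.893 for AT1G14960, with adjusted p-values from 6.66e-57 to 3.83e-08. Over all tested genes 31.9% were called in that test. The sign of the difference was negative in 4 of the 5, and the pkl effect changed direction between backgrounds in MLP34 and MLP329. AT1G14960 passed the test in the pif4-labelled background and not in WT.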

How the results depend on the processing

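Of 685 counts of called genes recomputed under the alternatives, 659 were within 1.5 times the reported count. With a filter at 5 CPM, which tests fewer genes and drops the low members, the members lower in pkl against WT were 1 (3 reported), lower in pif4 1 (2), higher in pklpif4 against WT 3 (6), against pkl 1 (4) and against pif4 1 (4), and with an interaction above 0 1 (3). In the other family genes that filter gave 2 higher (6) and 2 lower (4) in pkl, 2 higher in pklpif4 against WT (6), 1 higher (2) and 3 lower (6) against pkl, 1 higher against pif4 (4) and 3 with an interaction below 0 (7). With compared groups only, 1 member was lower in pkl and 1 in pif4, since MLP31 and AT1G14950 did not enter those fits. Limma on log2(FPKM + 1) with no filter gave 1 member lower in pif4, MLP28 being lost (-0.11, adjusted p = 0.0533). It gave 5 with an interaction above 0, among them AT1G14930 (1.23, adjusted p = 0.00728). Library totals and the 3 limma settings gave 2 other family genes lower in pkl, and limma gave 1 higher in pklpif4 against pkl; the cause was not tested. That last count was 1 to 2 when libraries were left out, and 1 without pkl replicate 1 or pklpif4 replicate 3. MLP329 in pklpif4 against pkl ran from -0.041 to 0.014 when libraries were left out and changed sign without pkl replicate 1 (0.005), pklpif4 replicate 2 (0.006) or pklpif4 replicate 3 (0.014). Library totals moved the median of all genes by at most 0.08 on the log2 scale. Same-numbered libraries did not deviate together (r from -0.027 to 0.02 over 18 pairs, 0 over 0.1), so the number does not pair them. With the replicate block, the counts in pif4 against WT were 3 members higher and 2 lower, AT1G14930 being lost (1.02, adjusted p = 0.0531), and 7120 genes were called in all. Depth limits MLP31, AT1G14940 and AT1G14950 wherever a group holds 0 to 8 counts.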
